A study of Sus scrofa with 3 samples.

Results

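The genes described here are 5 genes of blood clotting and platelets, THBD, F3, VWF, PPBP and CD9, read by 7 of the 23935 probe sets of an Affymetrix porcine array that names 6765 genes. They were taken as the probe sets annotated with exactly 1 of these symbols, and were chosen with their signals on these arrays already known. All 5 were found, THBD, F3, PPBP and CD9 with 1 probe set each and VWF with 3. The tissue was lung from minipigs, which are small pigs kept for surgical research. The operated array holds left lung after lung ischemia-reperfusion, made by a transient block of the left pulmonary artery alone. The bronchus was spared, so the airway was not blocked while flow through the left pulmonary artery was. The non-operated array holds the right, unblocked side after this surgery, and the sham array holds lung of a sham-operated minipig. The labels used here give no age, sex or breed, no length of occlusion or reperfusion, and no word on whether both lungs belonged to 1 animal.

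Haemostasis sets a procoagulant arm against an anticoagulant one on the vessel surface. Tissue factor, encoded by F3, is kept away from blood by its place on cells around vessels and on epithelium, and starts clotting when it meets factor VII. Thrombomodulin, encoded by THBD, sits on endothelium, binds thrombin and turns it from a clotting enzyme into an activator of protein C, which shuts clotting down. Von Willebrand factor, encoded by VWF, is stored in endothelial granules and in platelets, tethers platelets to injured vessel wall and carries factor VIII. PPBP encodes pro-platelet basic protein, the precursor of a platelet granule chemokine that attracts neutrophils, and CD9 is a tetraspanin, a membrane organiser that is abundant on platelets and is also made by endothelium, epithelium and other cells. Lung capillaries are rich in thrombomodulin, and in mice the lung is a place where megakaryocytes release platelets.

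Each group is 1 array, so the values have no spread between animals and no p-value is given. Values are signals of the MAS5 algorithm, which scales each array on its own. The median log2 signal was 7.31 on the operated and non-operated arrays and 7.33 on the sham array. That median served as the floor below which a signal was not read as a level. Where 1 of the 2 values lay at or below the floor it was set to the floor, and the difference is then a bound, given as "at least". Differences between arrays are differences of log2 signal, and 1 on that scale is 2-fold. As a yardstick within these arrays, probe sets of the same gene differed by a pooled SD of 0.39 in each comparison against sham and 0.22 between the lungs, over 783 to 820 genes with 2 or more probe sets above the floor. This covers differences between probe sets, not between animals.

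The arrays carried the surfactant genes of lung, with SFTPC at log2 signals of 14.52 in the operated, 14.56 in the non-operated and 14.44 in the sham lung. They also differed in the animal itself. EIF1AY, a gene of the Y chromosome, had signals of 1893 in the operated and 1646 in the non-operated lung, against 1.61 in the sham lung (it was looked at after its values were known). Procedure and animal therefore cannot be told apart in either comparison against sham, and both comparisons share the single sham array.

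All 5 genes had a higher signal in the operated lung than in the sham lung, by 2.01-fold to at least 14.5-fold. In the non-operated lung 4 of the 5 exceeded sham by 2-fold or more, and F3 was 1.29-fold higher. In neither comparison was a member lower. Over all 5097 genes counted for the operated lung, 8.65% lay at least 2-fold above sham and 8.79% at least 2-fold below it. Over the 5113 counted for the non-operated lung the shares were 8.96% above and 8.55% below. The members were chosen with these contrasts known, so their counts are a description. Their median log2 difference was 1.60 for operated against sham and 1.70 for non-operated against sham, beside -0.11 and -0.10 over all counted genes. Between the lungs none of the 5 differed by 2-fold, nor did most genes: of 4944 counted, 0.243% did.

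**Figure D1:**
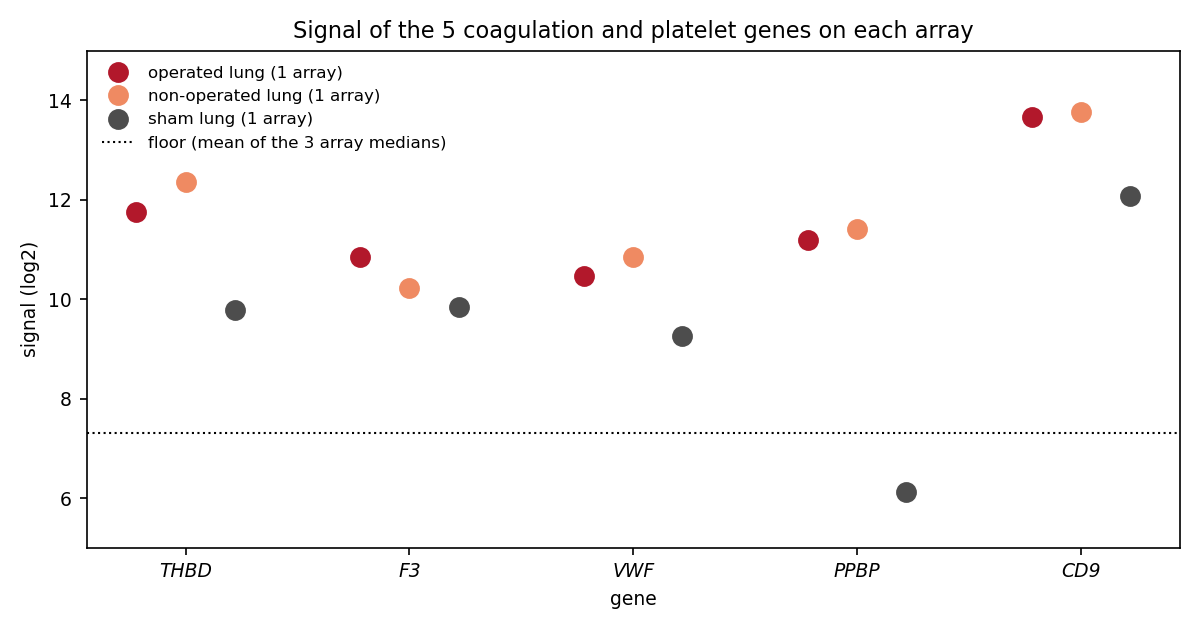
Log2 signal (y axis) of THBD, F3, VWF, PPBP and CD9 on the operated, non-operated and sham arrays, 1 point for each array, with the dotted line at the floor. Both lungs lie above sham for each gene, PPBP in sham lies below the floor, and F3 is the member with the operated point on top.

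The anticoagulant receptor gene THBD had a signal of 3480.0 in the operated lung and 5247 in the non-operated lung, against 882.0 in the sham lung. It was well over the floor on all 3 arrays, at 21.9, 33.1 and 5.49 times the floor. The non-operated lung was highest and sham lowest. Its log2 difference from sham was 1.98 in the operated lung, or 3.95-fold, and 2.57 in the non-operated lung, or 5.95-fold. Among all counted genes, 88 lay further up in the operated and 30 in the non-operated lung. The operated lung was 1.51-fold lower than the non-operated lung, a log2 difference of -0.59. That gap is under 2-fold but exceeds the pooled SD between probe sets, and of 4944 genes 100 lay further to the lower side.

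For F3, the gene of tissue factor, the signal was 1856 in the operated lung and 1191 in the non-operated lung, against 923.9 in sham. Here the operated lung was highest. The operated lung was 2.01-fold above sham, a log2 difference of 1.01 that lies just inside the 2-fold threshold. With quantile normalization it was 0.98, and with a pseudocount of 100 in place of the floor 0.93, both under 2-fold. In the non-operated lung the difference from sham was 0.37, which is less than the pooled SD between probe sets. Between the lungs F3 was 1.56-fold higher in the operated lung, a log2 difference of 0.64, and 46 of 4944 genes lay further up.

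THBD and F3 thus lay at opposite ends of the comparison between the lungs. The log2 difference of THBD exceeded that of F3 by 0.97 for operated against sham and by 2.21 for non-operated against sham. For operated against non-operated, THBD minus F3 was -1.23, or 2.35-fold. A constant scaling factor for an array cancels in these contrasts between genes. Each rests on 1 probe set per gene and 1 array per lung.

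VWF was read by 3 probe sets, and only the brightest lay above the floor. That probe set gave 1421 in the operated lung and 1842 in the non-operated lung, against 615.0 in sham. Non-operated lung was highest and sham lowest, the same order as THBD. The log2 difference from sham was 1.21 in the operated lung, or 2.31-fold, and 1.58 in the non-operated lung, or 2.99-fold. Operated against non-operated lung gave -0.37, again more than the pooled SD between probe sets. The other VWF probe sets stayed below the floor on all 3 arrays, so they carry no usable level. One gave 55.2 in the operated, 108.1 in the non-operated and 61.2 in the sham lung. Without a floor its log2 difference from sham was -0.15 in the operated and 0.82 in the non-operated lung, and operated against non-operated lung gave -0.97. Of these, 0.82 and -0.97 lie on the same side as the brightest probe set. The dimmest gave 2.82, 2.36 and 10.6, with differences of -1.91, -2.16 and 0.25, each on the opposite side. The values for VWF therefore rest on 1 probe set.

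Against sham, PPBP had the largest differences among the 5 genes at the floor used here. Its signal was 2328 in the operated lung and 2712 in the non-operated lung, against 69.3 in sham, where it lay below the floor of 160.7. Both lungs were far above the floor, at 14.7 and 17.1 times. The operated lung was at least 14.5-fold and the non-operated lung at least 16.9-fold higher than sham, log2 differences of no less than 3.86 and 4.08. These bounds are set by the floor. With a floor at the 75th percentile they were 1.93 and 2.15, below the 1.98 and 2.57 of THBD. Operated against non-operated lung gave -0.22, which is about the size of the pooled SD between probe sets. With quantile normalization it was -0.23.

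The tetraspanin gene CD9 was bright on every array, with signals of 13062 in the operated lung and 14018 in the non-operated lung, against 4309 in sham. It was 3.03-fold higher in the operated lung and 3.25-fold higher in the non-operated lung than in sham, log2 differences of 1.60 and 1.70. Operated against non-operated lung gave -0.10, which is under the pooled SD between probe sets.

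THBD, VWF, PPBP and CD9 thus had the order non-operated, operated, sham from high to low, and F3 had the order operated, non-operated, sham. For CD9 the operated and non-operated lungs were closer than the yardstick, as were the non-operated and sham lungs for F3. For PPBP the operated and non-operated lungs differed by about the yardstick.

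**Figure D2:**
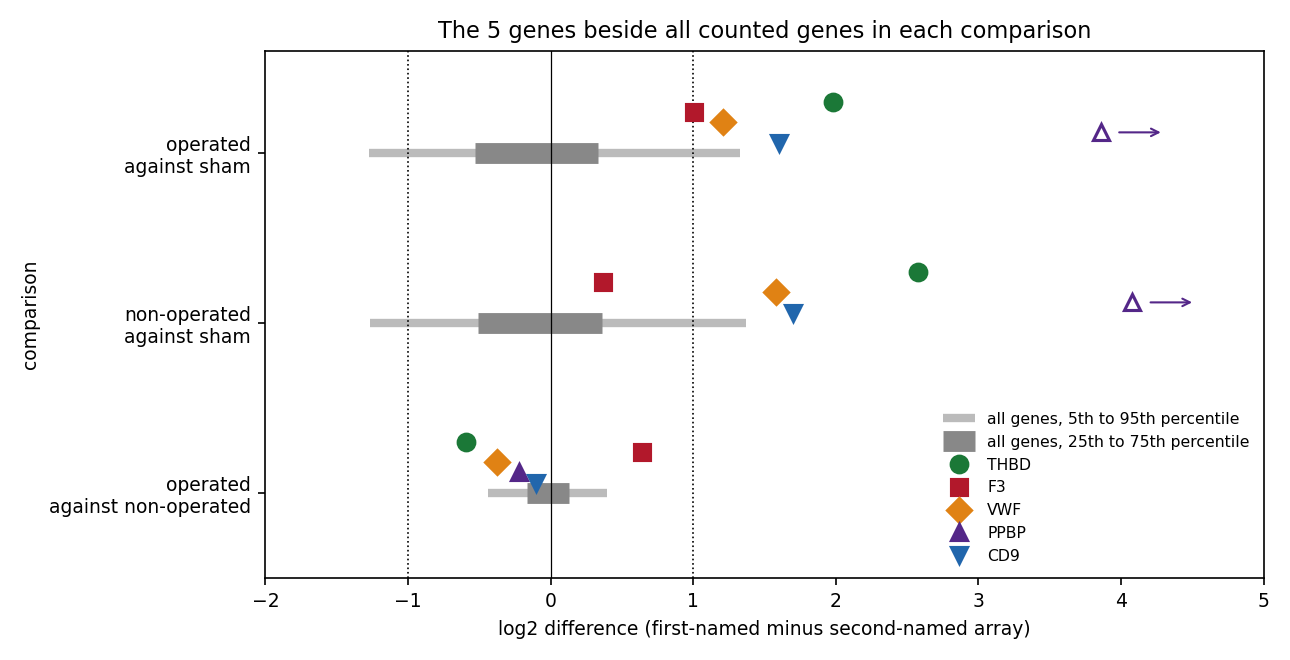
Log2 difference (x axis) of the 5 genes in the 3 comparisons (y axis), with bars for the 5th to 95th and 25th to 75th percentiles of all counted genes and dotted lines at 2-fold. Open symbols with an arrow are lower bounds. Between the lungs THBD at -0.59 and F3 at 0.64 lie outside the 5th to 95th percentile of -0.44 to 0.40, and VWF, PPBP and CD9 lie inside it.

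Other genes of the procoagulant arm were read from a list of 30 clotting factors and partners, of which 16 were on the array by name and 9 could be counted. In the operated lung 2 of the 9 exceeded sham by 2-fold or more and 0 were below it by that much, at a median log2 difference of 0.50. In the non-operated lung 1 was higher and 0 lower, and the median was 0.36. The higher genes were F2RL2, a thrombin receptor of the protease-activated family, at 1.46 in the operated and 1.65 in the non-operated lung, and PLSCR1, a phospholipid scramblase, at 1.16 and 0.79. F2R, the main thrombin receptor of vessel wall cells, was at 0.50 and 0.14. FGL2, a membrane-bound prothrombinase, was at 0.62 and 0.92, but of its 3 probe sets above the floor only 1 in the operated and 2 in the non-operated lung lay on that side. F5, the cofactor of factor Xa, was above the floor in sham alone, at -0.86 or lower in both lungs. Its signal was 70.5 in the operated and 66.1 in the non-operated lung, against 287.8 in sham. With that bound it could not be counted as 2-fold lower. The liver-made factors F9, F12, FGB, FGG, KLKB1 and KNG1, and F8, were at or below the floor on all 3 arrays.

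Among partners of thrombomodulin and other anticoagulant genes, 13 of 20 were on the array. In the operated lung 2 of 8 counted genes exceeded sham by 2-fold or more and 0 were lower, the median being -0.11. In the non-operated lung 2 of 9 were higher and 0 lower, the median being 0.17. The higher pair was ANXA5, a protein that covers exposed phosphatidylserine, at 1.41 and 1.42, and EXT1, an enzyme that builds heparan sulfate, at 1.05 and 1.15. The genes that work with THBD in the protein C pathway lay closer to sham than THBD did. PROCR, the endothelial receptor that presents protein C to thrombomodulin, was at -0.52 in the operated and 0.17 in the non-operated lung. PROS1, the cofactor of activated protein C, was at -0.38 and -0.30. TFPI2, a relative of the tissue factor pathway inhibitor, was at -0.91 and -0.51. PROC and TFPI itself were at or below the floor on all 3 arrays.

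Fibrinolysis, which dissolves clots, was covered by 10 of 14 listed genes on the array, of which 6 were counted. In the operated lung 1 exceeded sham by 2-fold or more and 0 were lower, and in the non-operated lung 2 were higher and 0 lower. The medians were 0.74 and 0.69. ANXA2 and S100A10 encode the subunits of a cell-surface complex that gathers plasminogen and its activator. ANXA2 was at 1.27 in the operated and 1.14 in the non-operated lung, and S100A10 at 0.78 and 1.13. The plasminogen activator genes were closer to sham, PLAT at 0.76 and 0.68 and PLAU at -0.32 and 0.47.

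PPBP and CD9 can be set beside other platelet genes. Of 34 listed platelet and megakaryocyte genes 16 were on the array and 13 were counted, with 4 at least 2-fold higher and 3 lower in the operated lung, and 4 higher and 2 lower in the non-operated lung. The medians were 0.35 and 0.63. ITGA2B and GP9, which encode parts of platelet-defining surface receptors, were at or below the floor on all 3 arrays. ITGB3, the partner chain of ITGA2B, was at -1.10 or lower in the operated lung and at -0.66 in the non-operated lung. The platelet ADP receptor gene P2RY12 was at -1.23 in the operated lung and at -1.45 or lower in the non-operated lung, and RGS18, a regulator of G protein signals in platelets and other blood cells, was at -1.34 or lower in both. The higher genes were PEAR1, PTGS1, PLEK and CD151. PEAR1, a platelet receptor also made by endothelium, was at 1.92 and 2.26. PTGS1, a cyclooxygenase of platelets and other cells, was at 1.62 and 1.83. PLEK, a protein kinase C substrate of platelets and leukocytes, was at 1.57 and 1.08, and CD151 was at 1.64 and 2.003. SELP was higher by at least 0.87 in the operated and 0.47 in the non-operated lung. The platelet list was thus mixed. Of the 13 counted genes, 8 lay above sham in the operated and 10 in the non-operated lung. Over all counted genes, 42.3% lay above sham in the operated and 43.4% in the non-operated lung. ITGB3, P2RY12 and RGS18 were below sham in both, and ITGA2B and GP9 had no readable level. In whole tissue, a difference in the number of cells of a type and in RNA per cell cannot be told apart.

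CD151 is a tetraspanin, as is CD9, and the other tetraspanins of the list were closer to sham. CD63 was at 0.35 in the operated and 0.57 in the non-operated lung, TSPAN9 at 0.21 and 0.70, and CD81, a close relative of CD9, at -0.24 and 0.04. ITGB1, an integrin chain that associates with tetraspanins, was at 0.80 and 0.85.

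The granules that store VWF and the factors that control endothelial haemostasis genes were covered by 8 of 13 listed genes on the array, 6 of them counted, with 2 at least 2-fold higher in each lung and 0 lower. The medians were 0.58 in the operated and 0.59 in the non-operated lung, the second being 1.10 with a floor at the 25th percentile. ERG, an endothelial transcription factor, was at 1.56 in the operated and 1.10 in the non-operated lung. KLF4, a transcription factor known from cultured human endothelium to raise THBD, was at 1.18 and 1.92. Operated against non-operated lung gave -0.75 for KLF4 and 0.47 for ERG. The part of either factor in the THBD values was not tested. SELP, the granule adhesion receptor stored with VWF, was counted in the platelet list and not here. It was higher by at least 0.87 in the operated and 0.47 in the non-operated lung. The granule peptide gene ANGPT2 was at -0.29 and -0.86. KLF2 was at or below the floor on all 3 arrays.

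**Figure D3:**
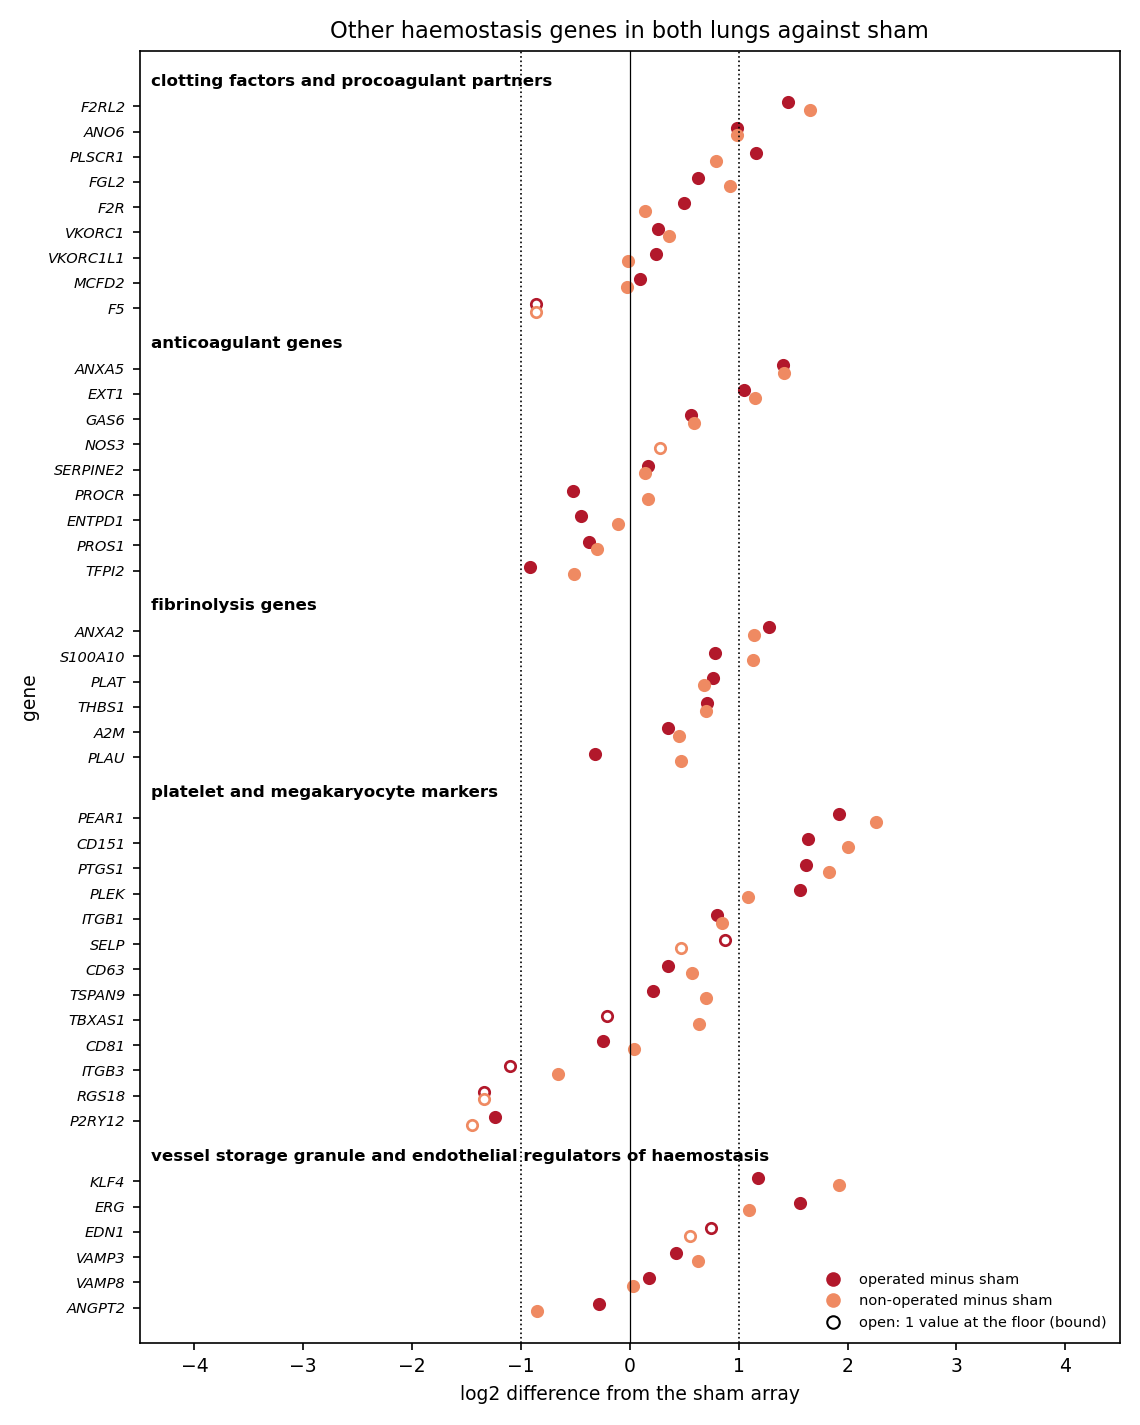
Log2 difference from the sham array (x axis) of each counted gene of 5 haemostasis lists (y axis), dark points for operated and light points for non-operated lung, open points where 1 value was at the floor, dotted lines at 2-fold. The platelet list spans from P2RY12 and RGS18 below -1 to PEAR1 near 2, while PROCR, PROS1 and TFPI2 lie near or below 0.

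Markers of several cell types also differed between the arrays. Of 11 counted endothelial markers 10 were at least 2-fold higher in the operated and 9 in the non-operated lung than in sham, 0 were lower, and the medians were 1.53 and 1.54. The summed signal of the 15 endothelial markers on the array was 33590 in the operated and 40257 in the non-operated lung, against 11495 in sham, while KDR, FLT1, TIE1 and ENG were at or below the floor throughout. CDH5, the endothelial cadherin, was at 1.80 and 1.94 and PECAM1 at 1.10 and 1.12. VWF minus the endothelial median was -0.32 in the operated lung and 0.05 in the non-operated lung. THBD lay 0.45 above it in the operated lung and 1.04 above it in the non-operated lung, with TMEM100 alone of the 11 markers higher in either. The part of the endothelial difference in the THBD and VWF values was not tested.

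THBD and F3 are also made by monocytes and macrophages, and F3 by epithelium. Monocyte and macrophage markers were at least 2-fold higher in 5 of 6 counted genes in the operated lung and 5 of 7 in the non-operated lung, with 0 lower and medians of 1.63 and 1.25. Their summed signal over 8 genes was 26775 in the operated and 26840 in the non-operated lung, against 9032 in sham, and CD14 was at or below the floor on all 3 arrays. Epithelial markers had medians of 0.31 and 0.21, with 2 of 11 and 1 of 11 higher and 0 lower. The higher genes were HOPX, at 2.40 in the operated and 2.34 in the non-operated lung, and SFTPB, at 1.23 in the operated lung. AGER was higher by at least 0.81 in the operated and 0.94 in the non-operated lung. The summed signal of the 11 was 54459 and 53296, against 40857 in sham. Between the lungs the epithelial markers lay on both sides, with 6 of 11 above 0, beside 47.2% of all counted genes. Their median was 0.06, with a range from -0.43 for KRT18 to 1.13 for SFTPB, which encodes surfactant protein B. Their part in the F3 and THBD values was not tested.

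Blood cells trapped in the tissue can carry platelet RNA. Of the red blood cell markers, HBB was at 0.69 in the operated and 0.25 in the non-operated lung, HBM at -0.06 and -0.01, and ALAS2 was higher by at least 1.11 and 1.21. The summed signal of the 4 on the array was 1751 and 1506, against 1155 in sham, and AHSP was at or below the floor throughout. The 3 counted neutrophil genes, S100A8, S100A9 and S100A12, were each at least 2-fold higher in both lungs, with S100A9 at 3.16 and 3.45. The granule genes ELANE, MMP9 and LTF were at or below the floor on all 3 arrays. Summed over 6 neutrophil genes the signal was 6876 and 8440.0, against 1142 in sham. Most of that sum in the 2 lungs was S100A9, at 5335 in the operated and 6517 in the non-operated lung, against 598.4 in sham. Lymphocyte markers lay the other way, with 5 of 6 at least 2-fold lower in each lung, medians of -1.56 and -1.57, and a summed signal of 1194 and 1237 against 5595 in sham. Smooth muscle and pericyte markers were higher in 4 of 7 and lower in 1 of 7 in each lung. Their medians were 1.63 and 1.41, which were 0.64 and 0.93 with a floor at the 75th percentile. The lower gene was RGS5, a pericyte marker, at -2.83 or lower in both lungs. PDGFRB was at 0.37 in the operated and 0.28 in the non-operated lung. The summed signal over 8 genes was 22342 and 24431 against 12408 in sham. The part of these cells in the PPBP and CD9 values was not tested.

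**Figure D4:**
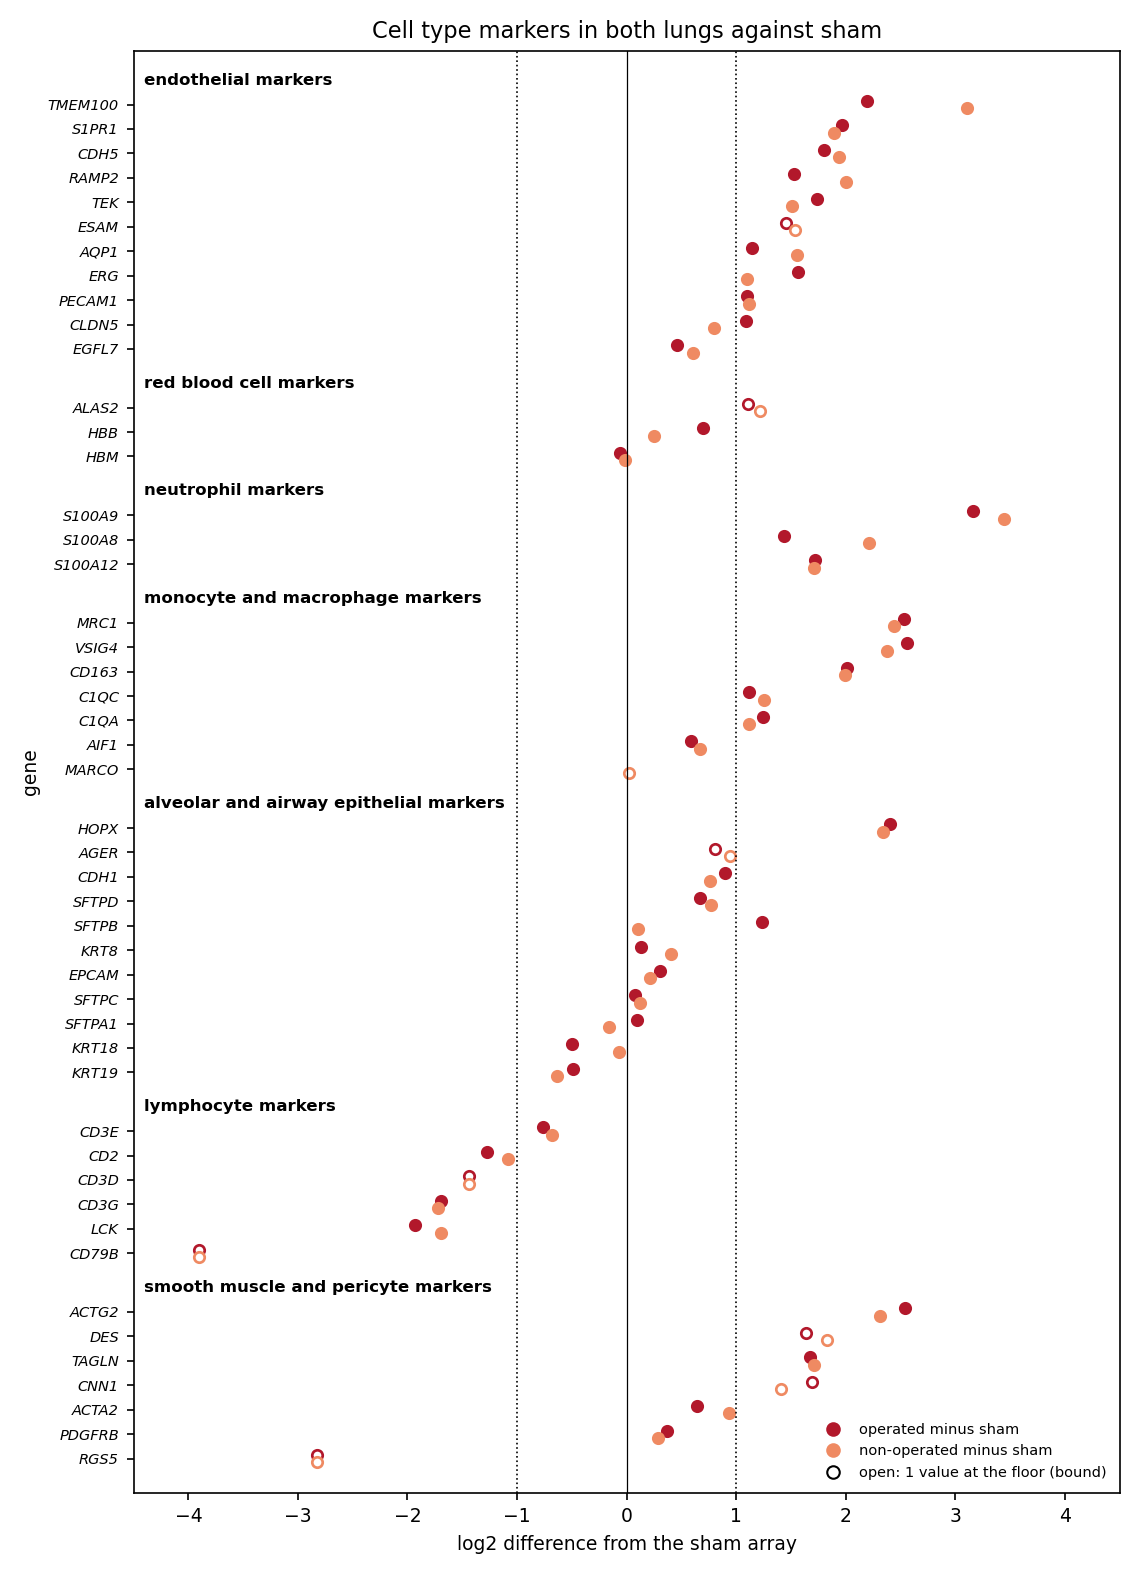
Log2 difference from the sham array (x axis) of counted cell type markers (y axis), dark points for operated and light points for non-operated lung, open points where 1 value was at the floor, dotted lines at 2-fold. Endothelial, macrophage and neutrophil markers lie mostly to the right of 1 and lymphocyte markers to the left of 0.

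Genes with a pattern most like THBD, F3, VWF and CD9 were found by the distance between their pair of log2 differences from sham, among 4385 genes above the floor on all 3 arrays. Nearest to THBD were the metalloproteinase ADAMTS1 at a distance of 0.16, the small heat shock protein gene CRYAB at 0.24 and the glucocorticoid receptor co-chaperone FKBP5 at 0.30. For F3 they were the matrix protein gene TNC at 0.05, the fatty acid binding protein gene FABP3 at 0.06 and REXO2 at 0.08. The genes nearest to VWF, all at 0.05, were WDFY3, the matrix protein gene DPT and NOTCH4, a Notch receptor of endothelium. CD9 had DLC1, the smooth muscle gene TAGLN and CRIM1 nearest, each at 0.07. PPBP was left out, because its differences from sham are bounds set by the floor. With 3 arrays each pattern is only 2 numbers.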

How the data were processed

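Per the labels' protocols, TRIZOL was used to extract total RNA, which a kit for the 3' ends of transcripts then amplified into biotin-labelled cRNA. The deposited table gives 1 log2 value for each probe set and array, from MAS5 per the submitters' processing notes. No label states its version or scaling target. After undoing the log, the mean with 2% trimmed from each end was 495.9 for the operated, 495.7 for the non-operated and 495.1 for the sham array, so no further scaling was applied. Detection calls were not used.

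Of 23999 probe sets, 64 controls were left out. The platform annotation gave 1 symbol to 10069 probe sets, several to 198 and none here to 13668. All 5 members matched the RefSeq table of Sscrofa11.1 by symbol and gene identifier. A gene with several probe sets was stood for by the brightest over the 3 arrays. A gene was counted when above the floor, each array's median, on at least 1 of 2 arrays. Groups were taken from sample titles. With 1 array per group no test was run, and precision is limited by the number of arrays. From each list up to 6 genes were to be named: those with the largest difference of at least 2-fold from sham and a signal of at least 2 times the floor. Partners under 2-fold were named after their values were seen. Likeness used the 3 nearest genes by Euclidean distance, passing over locus numbers, and is not given for PPBP. The members and the 12 lists were chosen with earlier results of these data known. Alternatives changed scaling, floor, pseudocount, probe set choice and fold threshold. Computation used Python 3.11.15, numpy 2.4.6 and pandas 2.3.3, and the gene-level step was checked on simulated data. No sequences are shown.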

Additional observations from a re-analysis of the deposited data

Results flagged for a closer look

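Of 88 listed genes counted against sham in both lungs, 7 lay on opposite sides of sham in the operated and the non-operated lung. The share of all counted genes on opposite sides was not computed, so this count is a description. CD81, VKORC1L1, SFTPA1 and MCFD2 lay within the pooled SD of 0.39 of sham in both lungs. PROCR was at -0.52 in the operated and 0.17 in the non-operated lung, PLAU at -0.32 and 0.47. TBXAS1 was at -0.21 or lower and at 0.63. With 1 array for each lung these differences were not tested. The log2 difference of operated minus non-operated lung was -0.84 for the thromboxane synthase gene TBXAS1, -0.79 for the urokinase gene PLAU and -0.69 for the protein C receptor gene PROCR. It was -0.28 for CD81, 0.26 for VKORC1L1, 0.25 for SFTPA1 and 0.12 for MCFD2. All but that of MCFD2 exceed the pooled SD between probe sets of 0.22. TBXAS1, PLAU, PROCR and CD81 lay below 0, as did THBD at -0.59. Over all 4944 counted genes 47.2% lay above 0, so the shared side is a description and not a likeness to THBD. TBXAS1 was at the floor in the operated lung, so its value is a bound.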

How the results depend on the processing

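Of 102 values for the 5 members under other scalings, floors and probe set choices, 100 kept their direction and their side of 2-fold. The exceptions were F3 in the operated lung against sham, at 0.98 with quantile normalization and 0.93 with a pseudocount. Part of the 100 was fixed in advance. THBD, F3 and CD9 have 1 probe set each and lay above every floor. Moving or removing the floor, or averaging probe sets, could therefore not change them. The same holds for VWF when the floor moves and for PPBP when probe sets are averaged. Against sham, THBD lay between 1.87 and 1.998 (operated) and between 2.44 and 2.59 (non-operated). PPBP lay between 1.93 and 5.07 (operated) and between 2.15 and 5.29 (non-operated), according to the floor. VWF had no value with the mean of all probe sets, which lay below the floor. Chosen after seeing the data, its dimmer probe sets gave -1.91 and -0.15 for operated against sham, -2.16 and 0.82 for non-operated against sham, and 0.25 and -0.97 between the lungs.

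Counts of genes past the threshold moved with the floor and the fold. Higher and lower genes numbered 744 and 877 in the operated lung without a floor, 230 and 197 with a floor at the 75th percentile, 853 and 1107 at 1.5-fold, and 83 and 74 at 4-fold, beside 441 and 448. In the non-operated lung they were 814 and 848, 245 and 194, 896 and 1093, and 82 and 71, beside 458 and 437. Between the lungs they were 231 and 319 without a floor, 47 and 63 at the 25th percentile, 1 and 4 at the 75th, 65 and 104 at 1.5-fold, and 0 and 0 at 4-fold, beside 3 and 9. With a pseudocount 5 were lower, and averaging all probe sets gave 6 higher.

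Of 251 list medians 12 changed sign, 7 dropped under 2-fold and 1 passed it. The smooth muscle medians were 0.64 (operated) and 0.93 (non-operated) at the 75th percentile and with probe sets averaged. The neutrophil median was 0.75 (operated) and 0.92 (non-operated) with a pseudocount and 0.56 (non-operated) at the 75th percentile. The vessel granule median was 1.10 (non-operated) at the 25th. For operated against sham, the platelet median was -0.0147 without a floor and at the 25th percentile and -0.0116 with a pseudocount, and the anticoagulant median was 0.16 at the 75th. Between the lungs, the vessel granule median was -0.0257 without a floor and at the 75th percentile and -0.0268 with a pseudocount. Fibrinolysis was 0.00827 with quantile normalization, red cells 0.44 at the 75th percentile, smooth muscle -0.0406 at the 25th and -0.0164 with probe sets averaged, and macrophages -0.0103 with that average. The cause was not tested. No paired analysis was possible because each group is 1 array, and no replicate could be left out.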
